A study of Rattus norvegicus with 24 samples.

Results

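Complex I, the NADH:ubiquinone oxidoreductase, is the entry point of electrons from NADH into the mitochondrial respiratory chain. Its matrix arm oxidises NADH with a flavin, passes the electrons along iron-sulfur clusters to ubiquinone, and its membrane arm pumps protons. The nuclear-encoded core subunits of the matrix arm carry out the chemistry, the accessory subunits surround and stabilise them, and assembly factors help to build the enzyme without staying in it. In skeletal muscle the complex is one of the main consumers of NADH produced by fat and carbohydrate oxidation.

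The genes described here are those whose symbol begins with Nduf in a normalised expression table of rat tibialis anterior muscle, taken by symbol and, where a symbol had several rows, by the row of highest mean. The rule found 44 genes on 46 rows, of 13458 symbols on 14243 rows, and used no measured difference. Of these, 34 encode subunits (7 core, 9 matrix-arm accessory, 17 membrane-arm accessory, and Ndufab1, which sits in both arms) and 7 encode assembly factors (Ndufaf1, Ndufaf3, Ndufaf4, Ndufaf5, Ndufaf6, Ndufaf7 and Ndufaf8). The remaining 3 were kept apart. Ndufa4 encodes a protein now placed in complex IV, Ndufa4l2 is its paralog, and Ndufa10l1 is a copy of Ndufa10. Ndufa3, Ndufb1, Ndufc1, Ndufaf2 and the mitochondrially encoded subunits were not analysed here.

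The muscles came from 12 male Fischer 344 rats aged 23 ± 1 months. In 9 animals tetrodotoxin (TTX), a sodium channel blocker, was delivered by osmotic pump to the left common peroneal nerve, which silences the ankle dorsiflexors without cutting the nerve. The left limbs were sampled after 6 to 7 days of nerve silencing (atrophy, n = 3), after a further 9 days of resumed activity (recovery, n = 3) or after another 5 to 6 days of TTX (repeated atrophy, n = 3), and the 9 untreated right limbs of the same animals served as controls. A further 3 sham animals gave 3 left and 3 right limbs, 1 animal for each of the 3 times. Every control limb therefore belonged to an animal that had been treated on the other side. The animals of a group are its replicates.

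Expression was given as CPM, read counts scaled to a common library total. In whole muscle, fewer cells of a type and less RNA per cell cannot be told apart. The depth inferred from the values ranged from 18861200 to 30893800 reads per limb. All 6 listed skeletal muscle markers were present in all groups. Their summed level ranged from 115366 to 179126 CPM in the control limbs, 67952 to 124184 CPM in the atrophy limbs, 135149 to 141440 CPM after recovery and 94799 to 116225 CPM after repeated atrophy. In CPM none of the 6 was called lower in any comparison between groups, and Mb (myoglobin) was called higher after repeated atrophy (1.01 log2, limma adjusted p = 0.0124). Their median log2 fold change after the first atrophy was -0.58, from -1.39 for Myh4 (SE 0.58, limma adjusted p = 0.0885) to 0.49 for Mb. Rescaled fold changes of these markers are not given here. The 10 highest rows held 24.3% to 32.7% of the total in the control limbs, 13.0% to 25.6% in the atrophy limbs and 15.6% to 19.2% in the repeated atrophy limbs. A scaling factor that is little affected by such rows was 0.793 to 1.03 in the control limbs, 0.991 to 1.28 in the atrophy limbs and 1.04 to 1.26 in the repeated atrophy limbs. The median log2 fold change of all rows against control was 0.22 for atrophy, 0.02 for recovery and 0.20 for repeated atrophy in CPM, and 0.00, 0.01 and -0.01 after rescaling by this factor. A gene was called when it changed at least 1.2-fold with an adjusted p (Benjamini-Hochberg, limma) no higher than 0.05, over all 14031 rows tested. All 44 genes passed the filter on low values.

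Subunits and assembly factors differed in level. Per kilobase of the deposited transcript length, the 34 subunits had a median of 241 CPM per kb in control muscle (range 58.4 to 675) and the 7 assembly factors a median of 23.0 CPM per kb (range 8.64 to 37.3), and the ranges did not overlap. The highest subunit on this scale was Ndufb9 of the membrane arm, and the core subunits ranged from 127 CPM per kb for Ndufs8 to 583 CPM per kb for Ndufv2. Ndufa4 stood above all subunits at 733 CPM per kb and Ndufa4l2 below all assembly factors at 3.90 CPM per kb. The levels of genes with processed copies are uncertain, because reads may be divided between the copies. Ndufa10 and Ndufa10l1 are such a pair, and the Ndufs6 row lies at chr2:27201713-27202127 (rn7), while RefSeq of the GRCr8 assembly places Ndufs6 on chromosome 1 and lists on chromosome 2 a pseudogene, Ndufs6-ps1, with Ndufs6 among its synonyms.

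The upstream sequences of 4 genes are shown because these genes lie at the ends of the distribution described below. Ndufs7 and Ndufs3 had the largest falls among the core subunits after repeated atrophy against control, and in recovery against control Ndufs5 had the largest called rise among the accessory subunits and Ndufaf5 the largest among the assembly factors. The sequences are the 250 bases before the annotated start from RefSeq (GRCr8), read 5′ to 3′ on the gene's strand, with matches on either strand to GCGCANGCG (the core of an NRF1-like site), AAGGTCA (an ERR-like site) or CCGGAAG (an ETS-like site) in capitals. Ndufs7 is at chr7:10110499-10110748 (minus), Ndufs3 at chr3:97339655-97339904 (minus), Ndufs5 at chr5:141264403-141264652 (minus) and Ndufaf5 at chr3:147961362-147961611 (plus).
Ndufs7: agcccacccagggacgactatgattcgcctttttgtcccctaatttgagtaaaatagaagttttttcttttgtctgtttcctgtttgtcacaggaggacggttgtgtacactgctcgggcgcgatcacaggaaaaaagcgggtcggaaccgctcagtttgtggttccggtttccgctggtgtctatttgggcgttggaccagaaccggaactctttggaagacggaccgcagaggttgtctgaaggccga
Ndufs3: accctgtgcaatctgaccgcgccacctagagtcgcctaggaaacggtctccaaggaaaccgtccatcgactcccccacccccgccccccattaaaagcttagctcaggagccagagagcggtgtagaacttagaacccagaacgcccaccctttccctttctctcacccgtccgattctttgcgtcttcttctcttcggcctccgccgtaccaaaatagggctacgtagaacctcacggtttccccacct
Ndufs5: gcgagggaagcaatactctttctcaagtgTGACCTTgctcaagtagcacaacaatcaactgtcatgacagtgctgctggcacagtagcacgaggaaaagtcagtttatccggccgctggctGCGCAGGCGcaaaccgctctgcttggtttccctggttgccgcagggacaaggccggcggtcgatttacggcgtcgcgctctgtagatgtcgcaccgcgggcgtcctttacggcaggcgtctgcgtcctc
Ndufaf5: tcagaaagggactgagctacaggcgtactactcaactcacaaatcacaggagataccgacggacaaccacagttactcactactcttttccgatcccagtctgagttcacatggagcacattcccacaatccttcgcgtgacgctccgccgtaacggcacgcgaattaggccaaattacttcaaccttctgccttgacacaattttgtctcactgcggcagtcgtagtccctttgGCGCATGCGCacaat

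Of the 44 genes, 39 had an upstream sequence in this reference. The GCGCANGCG match was present in 10 of the 39 (25.6%), against 5.09% of all 33469 promoters and 10.5% of the 11046 promoters of symbols in the expression table. It occurred in 8 of 31 subunits and 2 of 6 assembly factors (Ndufaf4 and Ndufaf5), and in 0 of the 6 core subunits with a sequence. Matches to CCGGAAG were present in 9 of the 39 (23.1%, against 7.27% of all promoters and 13.7% of those of symbols in the table), 2 of them core subunits (Ndufs1 and Ndufs8). The assembly factor Ndufaf8, called lower after repeated atrophy, had such a match at 16 to 10 bases before the start. Ndufs4, called higher in recovery and after repeated atrophy, had no match to GCGCANGCG, AAGGTCA or CCGGAAG. Matches to AAGGTCA were present in 2 of the 39 (5.13%, against 3.99% and 2.64%). A further motif searched, GGGCGG (an SP1-like site), was present in 14 of the 39 (35.9%, against 30.5% and 55.8%). The motifs were chosen with the expression results known, the Ndufs6 sequence comes from the protein-coding locus and not from the row measured, and a match is no evidence of binding.

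After repeated atrophy the core subunits of the matrix arm had the lowest median of the classes. Of 34 subunits, 9 were called lower and 1 was called higher, beside 6.24% of all rows called lower and 28.1% called higher. The 9 were 5 of 7 core subunits (Ndufs7, Ndufs3, Ndufs1 and Ndufs8 among them) and 4 of 27 accessory subunits (Ndufb8, Ndufa9, Ndufa8 and Ndufab1). The median log2 fold change was -0.61 over the core subunits, -0.10 over the accessory subunits and 0.01 over the assembly factors, against 0.20 over all rows. Over the 6766 rows with a mean of at least 10 CPM the median was 0.40, with 8.99% called lower and 40.9% called higher. With the rescaled values 14 subunits were called lower and 0 higher, all 7 core subunits among them, beside 12.1% and 13.1% of all rows. With the animal as a block, which compares each left limb with the right limb of the same rat, 3 subunits were called lower (Ndufs7, Ndufs3 and Ndufa9) and 2 higher (Ndufs4 and Ndufa1), beside 5.66% and 21.5% of all rows. Without any 1 of the 3 repeated atrophy animals only 2 to 4 subunits were called in either direction, and Ndufs7 and Ndufs3 were called each time. The share of all rows called without these animals is not given here.

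**Figure D1:**
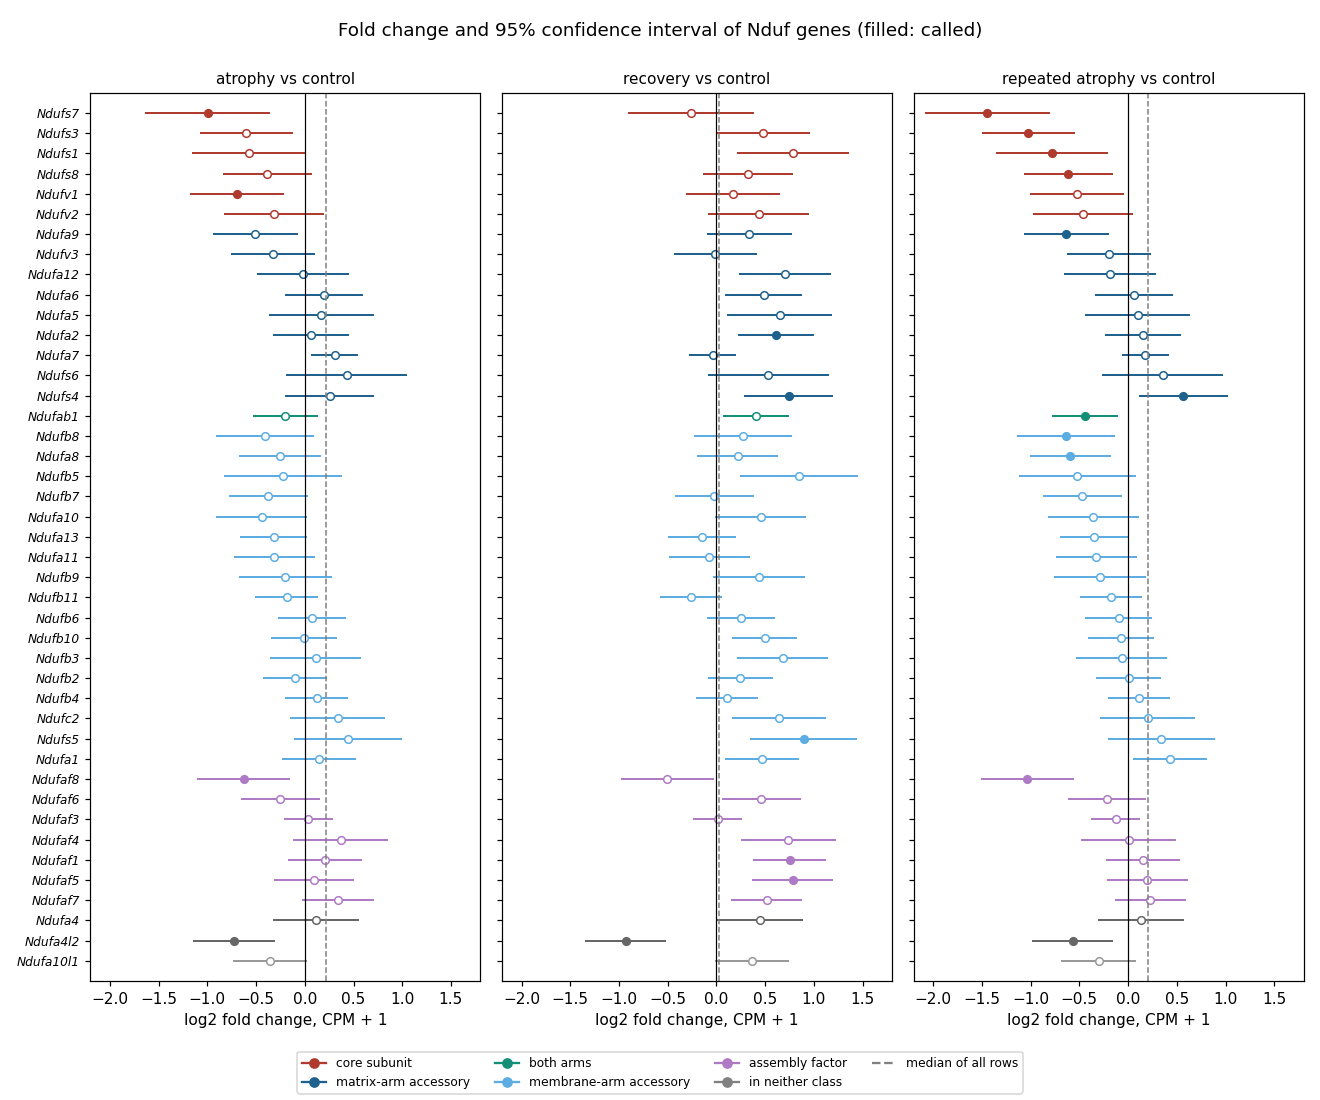
Log2 fold change on the CPM + 1 scale (x axis) of individual Nduf genes (y axis) in atrophy, recovery and repeated atrophy against the 9 control limbs, with 95% confidence intervals from limma, coloured by class and filled where called. The 6 core subunits drawn lie left of 0 after atrophy and repeated atrophy, and all of them but Ndufs7 lie right of 0 after recovery, while the dashed line marks the median of all rows.

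Ndufs7, the subunit that holds the last iron-sulfur cluster before ubiquinone, had the largest fall of the 44 genes after repeated atrophy against control. It was at 103 to 263 CPM in the control limbs (median 194), at 51.6, 126 and 107 CPM in the atrophy limbs, at 171, 169.9 and 112 CPM in the recovery limbs and at 75.0, 47.2 and 76.3 CPM in the repeated atrophy limbs. The 3 repeated atrophy limbs were all below the lowest control limb, while the atrophy and recovery limbs overlapped the controls. The lowest sham limbs, at 68.2 CPM on the left and 68.7 CPM on the right, lay within the range of the repeated atrophy limbs. The log2 fold change after repeated atrophy was -1.45 (SE 0.30, limma adjusted p = 0.00154) and -1.49 in the blocked fit (adjusted p = 0.0101). After the first atrophy it was -1.0 (SE 0.30, adjusted p = 0.0259), but -0.47 with the block (adjusted p = 0.443), with left minus right at -1.70, 0.24 and 0.04 log2 in the 3 animals.

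Ndufs3, a subunit of the ubiquinone-binding module, was at 141 to 375 CPM in the control limbs (median 264). It was at 152, 205 and 153 CPM in the atrophy limbs, at 423, 379.6 and 283 CPM in the recovery limbs and at 135, 126 and 115 CPM in the repeated atrophy limbs. The repeated atrophy limbs again lay below every control limb, and 2 of 3 recovery limbs lay above every control limb. The sham limbs were at 104 to 342 CPM on the left and 105 to 326 CPM on the right. The lowest sham limb of each side was below every repeated atrophy limb. The log2 fold change was -1.02 after repeated atrophy (SE 0.22, limma adjusted p = 0.00202) and -0.89 with the block (adjusted p = 0.0106). After the first atrophy it was -0.60 (SE 0.22, adjusted p = 0.0588), and after rescaling it was called (-0.96, adjusted p = 0.0417).

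Ndufs1, the largest subunit of the matrix arm and a carrier of several iron-sulfur clusters, was at 299 to 973 CPM in the control limbs (median 526). It was at 386.5, 387 and 346 CPM in the atrophy limbs, at 1099, 1049 and 766 CPM in the recovery limbs and at 264.5, 390.5 and 330.1 CPM in the repeated atrophy limbs. Of the repeated atrophy limbs 1 was below the lowest control limb and 2 were within the control range, and 2 of 3 recovery limbs were higher than any control limb. The fall after repeated atrophy was -0.78 log2 (SE 0.27, limma adjusted p = 0.0322), and it was -0.54 with the block (adjusted p = 0.120). The difference between repeated atrophy and recovery, -1.56 log2 (SE 0.33, adjusted p = 0.00353), was the largest of the 44 genes.

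Ndufs8, another iron-sulfur subunit near the membrane, was at 58.3 to 134 CPM in the control limbs (median 86.1). It was at 60.4, 76.0 and 75.7 CPM in the atrophy limbs, at 141, 124 and 88.4 CPM in the recovery limbs and at 61.2, 58.5 and 60.2 CPM in the repeated atrophy limbs. The treated limbs stayed within the control range in both atrophy groups. Its fall after repeated atrophy was -0.61 log2 (SE 0.21, limma adjusted p = 0.0328) and was not called with the block (-0.48, adjusted p = 0.129).

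Ndufv1, which binds NADH and the flavin at the tip of the matrix arm, was at 243 to 518 CPM in the control limbs (median 369), at 183, 269 and 252 CPM in the atrophy limbs, at 481, 439 and 355 CPM in the recovery limbs and at 338, 212 and 247 CPM in the repeated atrophy limbs. It was called lower after the first atrophy (-0.70 log2, SE 0.23, limma adjusted p = 0.0345; -0.28 with the block, adjusted p = 0.511), although 2 of the 3 limbs were within the control range. After repeated atrophy its log2 fold change was -0.52 (SE 0.23, adjusted p = 0.0816). Ndufv2, its iron-sulfur partner, was at 295 to 692 CPM in the control limbs (median 521), at 364, 459 and 338 CPM in the atrophy limbs, at 782, 684 and 503 CPM in the recovery limbs and at 366, 400 and 283 CPM in the repeated atrophy limbs. Its log2 fold changes of -0.31 (adjusted p = 0.372) and -0.46 (adjusted p = 0.151) in the atrophy groups did not pass the test.

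**Figure D2:**
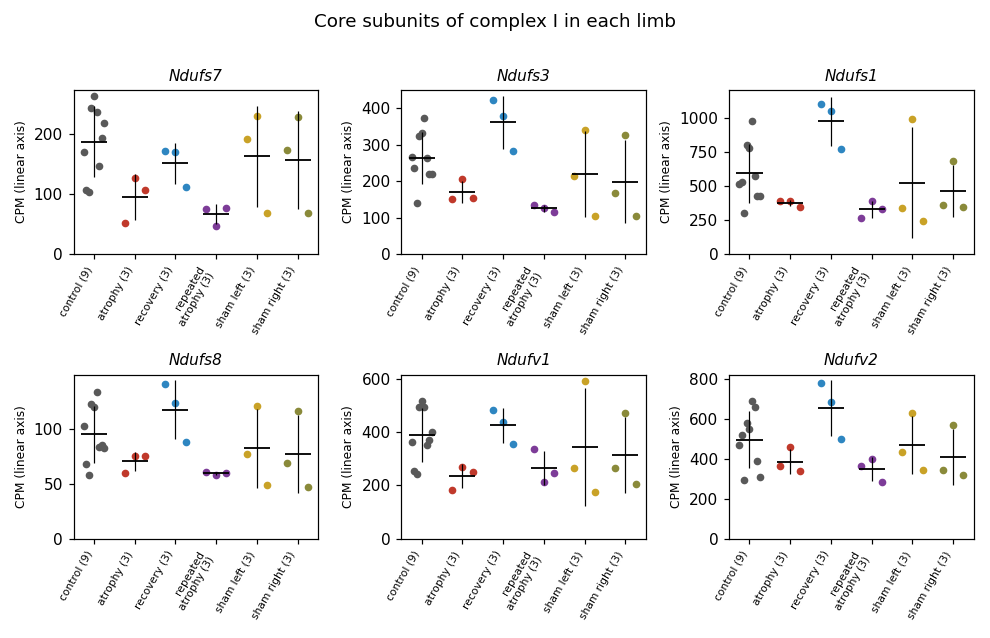
CPM of 6 core subunits (y axis, linear from 0) in each limb of the 6 groups (x axis, number of limbs in brackets), with points for limbs, horizontal bars for means and vertical bars for the SD. The Ndufs7 and Ndufs3 points after repeated atrophy lie below all 9 control points, and the 3 sham limbs of either side span 68.2 to 230 CPM for Ndufs7 and 104 to 342 CPM for Ndufs3.

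Core subunits varied widely between limbs that had received no TTX. For each limb the median over the 7 core subunits of the log2 difference from the control mean was computed. It ran from -0.69 to 0.53 in the 9 control limbs, and the limbs at these ends had the highest and the lowest scaling factor of the control group (1.03 and 0.793). The atrophy limbs were at -0.64, -0.34 and -0.57, the repeated atrophy limbs at -0.58, -0.65 and -0.75 and the recovery limbs at 0.61, 0.43 and -0.06. Both limbs of 1 sham animal were lower than any TTX limb (-1.10 left and -0.88 right, with scaling factors of 1.12 and 1.16), and both limbs of another were high (0.42 and 0.33). The part of library composition in these differences was not tested. Within animals, left minus right was -0.59, -0.05 and 0.12 in the atrophy animals, 0.21, 0.04 and -0.59 in the recovery animals, -0.62, -0.55 and -0.60 in the repeated atrophy animals and 0.22, 0.09 and -0.22 in the sham animals. In CPM the left limb was thus lower in 3 of 3 animals after repeated atrophy, with little spread, and in 2 of 3 after the first atrophy. After rescaling it was lower in 3 of 3 animals of both arms. Left minus right was then -1.14, -0.02 and -0.16 in the atrophy animals and -0.86, -1.05 and -0.99 in the repeated atrophy animals.

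A difference between 2 sets of genes in the same limb does not depend on the scaling of that limb, apart from the pseudocount. The core median minus the accessory median was -0.33 to 0.22 log2 in the control limbs. It was -0.64, -0.27 and -0.35 in the atrophy limbs, -0.05, 0.02 and -0.21 in the recovery limbs and -0.54, -0.70 and -0.42 in the repeated atrophy limbs. All 3 repeated atrophy limbs and 2 of 3 atrophy limbs were below the lowest control limb. In the sham animals it was -0.25, 0.11 and -0.67 on the left and -0.10, 0.12 and -0.26 on the right, so that 1 sham left limb was as low as the repeated atrophy limbs. Within animals, left minus right of this difference was -0.57, 0.06 and -0.16 in the atrophy animals, -0.23, -0.13 and -0.44 in the recovery animals, -0.32, -0.82 and -0.62 in the repeated atrophy animals and -0.14, -0.01 and -0.40 in the sham animals. It was below 0 in all animals of the last 3 arms, and their ranges overlapped.

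**Figure D3:**
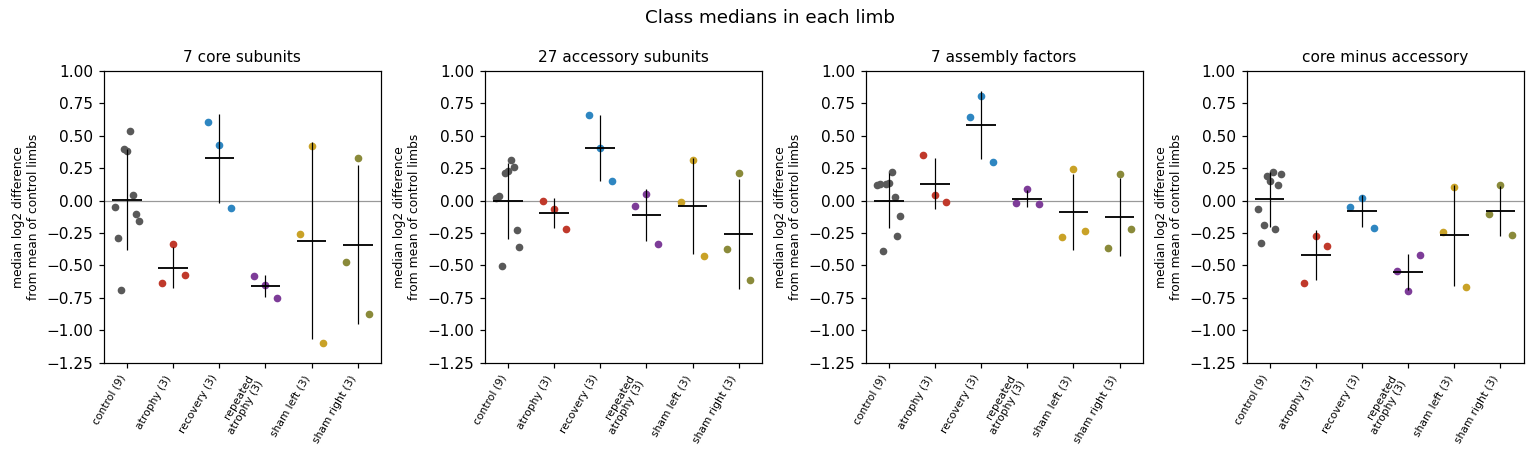
Median log2 difference from the mean of the 9 control limbs (y axis) over the 7 core subunits, the 27 accessory subunits and the 7 assembly factors, and the core median minus the accessory median, in each limb of the 6 groups (x axis), with means and SD. After repeated atrophy the core medians lie between -0.75 and -0.58 while the accessory medians lie between -0.34 and 0.05 and the assembly factor medians between -0.02 and 0.09, and the sham limbs spread from -1.10 to 0.42 in the core panel.

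Deposited transcript length was compared with the log2 fold change. The core subunits had transcripts of 723 to 2477 bases (median 1056) and the accessory subunits of 351 to 2569 bases (median 560). Across the 34 subunits, Spearman's rho between length and log2 fold change was -0.54 for atrophy, 0.18 for recovery and -0.57 for repeated atrophy. Across the 27 accessory subunits alone it was -0.34, 0.27 and -0.44, and across 6766 rows with a mean of at least 10 CPM it was -0.12, -0.14 and -0.07. These correlations are across genes measured in the same libraries and genes are not independent replicates. The part of transcript length in the difference between core and accessory subunits was not tested.

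A minority of the 27 accessory subunits was called after repeated atrophy, where 6.24% of all rows were called lower and 28.1% higher. Ndufb8, a membrane-arm subunit, was at 183 to 459 CPM in the control limbs (median 277) and at 201, 178 and 193 CPM after repeated atrophy, and fell by 0.64 log2 (SE 0.23, limma adjusted p = 0.0422). Ndufa9, which sits where the arms meet, was at 185 to 422 CPM (median 268) and at 220, 183 and 163 CPM, and fell by 0.63 log2 (SE 0.20, adjusted p = 0.0217). Ndufa8, a membrane-arm subunit of the intermembrane-space side, was at 44.9 to 87.1 CPM (median 78.0) and at 44.1, 56.3 and 41.0 CPM, and fell by 0.59 log2 (SE 0.19, adjusted p = 0.0251). Each had at least 1 repeated atrophy limb within the control range, and of the 3 only Ndufa9 was also called with the block (-0.55, adjusted p = 0.0380). The fourth called accessory subunit, Ndufab1, the mitochondrial acyl carrier protein, fell by 0.44 log2 (adjusted p = 0.0335).

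Ndufs4, a small matrix-arm subunit whose loss causes Leigh syndrome, was the 1 subunit called higher after repeated atrophy. It was at 103 to 208 CPM in the control limbs (median 158), at 252, 138 and 156 CPM in the atrophy limbs, at 278, 252 and 213 CPM in the recovery limbs and at 221, 247 and 188 CPM in the repeated atrophy limbs. The recovery limbs were all above the control range and 2 of 3 repeated atrophy limbs were. The log2 fold change after repeated atrophy was 0.57 (SE 0.21, limma adjusted p = 0.0471) and 0.72 with the block (adjusted p = 0.0382), but 0.18 after rescaling (adjusted p = 0.634). Ndufa1, a membrane-arm subunit encoded on chromosome X, was at 130, 123 and 100 CPM after repeated atrophy against 55.3 to 124 CPM in the control limbs, with a log2 fold change of 0.43 that did not pass the test (adjusted p = 0.0680). It was called higher with the block (0.50, adjusted p = 0.0452) and was at 0.05 after rescaling (adjusted p = 0.899).

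**Figure D4:**
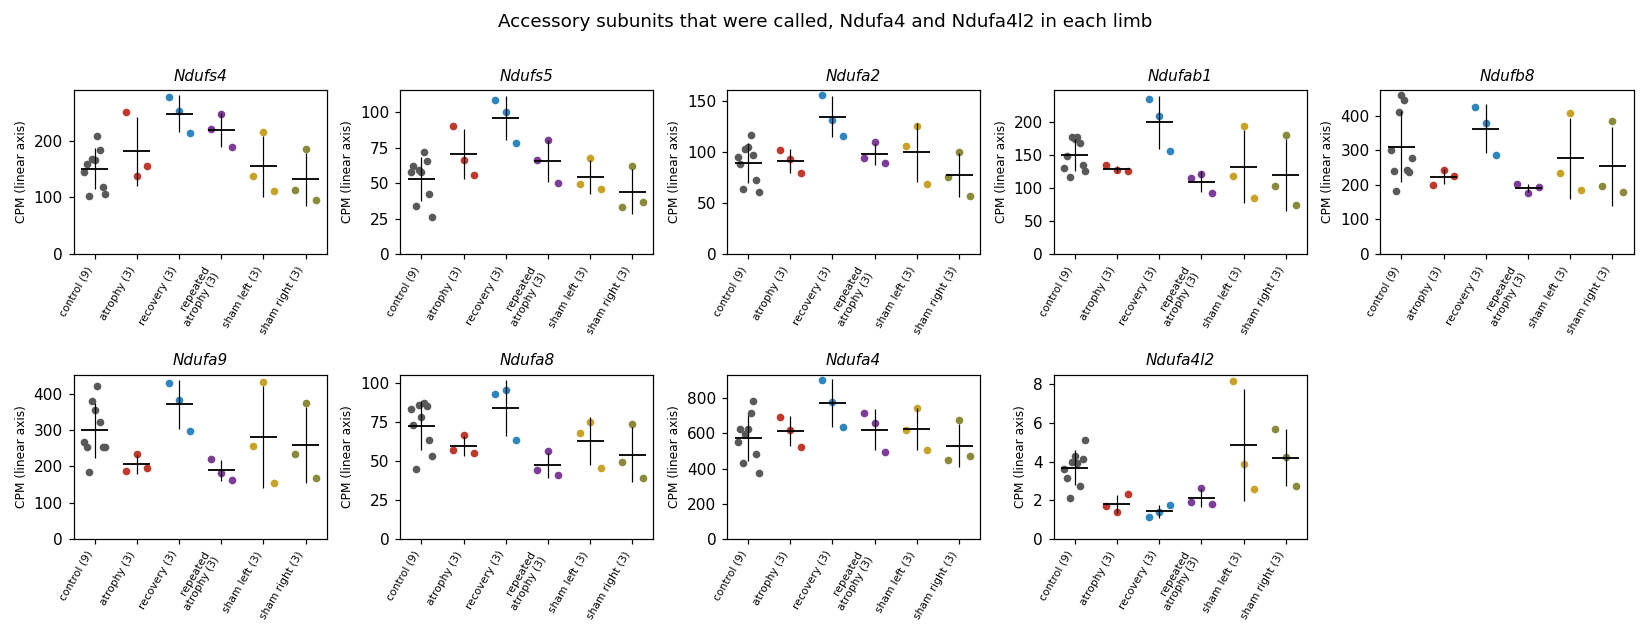
CPM (y axis, linear from 0) of 7 accessory subunits that were called in a comparison with control, and of Ndufa4 and Ndufa4l2, in each limb of the 6 groups (x axis, number of limbs in brackets), with means and SD. Ndufs4, Ndufs5 and Ndufa2 have their highest means in recovery, and the Ndufa4l2 points after recovery (1.11 to 1.75 CPM) lie below all control points.

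After the first atrophy, 2 of 34 subunits were called lower (Ndufs7 and Ndufv1, both core) and 0 higher, beside 2.33% of all rows called lower and 20.3% called higher. All 7 core subunits had a log2 fold change below 0 (median -0.58, range -1.0 to -0.31), while 15 of 27 accessory subunits were below 0 and 12 above (median -0.02), against a median of 0.22 over all rows. After rescaling, 5 subunits were called lower (4 core subunits and Ndufa9) and 0 higher, beside 4.92% and 4.73% of all rows. With the animal as a block none of the 44 genes was called, and no row of the whole table was. Without atrophy animal 1 neither subunit was called in CPM, while without atrophy animal 2 the rescaled values gave 13 subunits called instead of 5. The share of all rows called in these settings is not given here, so the counts are not set against it. The left limb of atrophy animal 2 had a scaling factor of 0.991 and 25.6% of its total in the 10 highest rows, against 1.28 and 13.0% for animal 1 and 1.24 and 15.6% for animal 3.

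In recovery most subunits were above control. Of 34 subunits, 27 were above control and 3 were called higher (Ndufs5, Ndufs4 and Ndufa2), 0 lower, beside 4.4% of all rows called higher and 3.33% called lower. The median log2 fold change was 0.42 over the subunits, 0.32 over the core subunits and 0.51 over the assembly factors, against 0.02 over all rows. Ndufs5, an accessory subunit on the intermembrane-space side, was at 26.0 to 72.1 CPM in the control limbs (median 57.9) and at 109, 100 and 78.4 CPM after recovery, with no overlap (0.89 log2, SE 0.26, limma adjusted p = 0.0413). Ndufa2, a matrix-arm subunit with a thioredoxin-like fold, was at 61.2 to 117 CPM (median 94.8) and at 156, 131 and 116 CPM (0.61 log2, SE 0.18, adjusted p = 0.0464). Ndufs4 rose by 0.74 log2 (SE 0.21, adjusted p = 0.0409). After rescaling the log2 fold changes of Ndufs5, Ndufa2 and Ndufs4 were 0.88, 0.59 and 0.73 and none of the 3 was called (adjusted p = 0.059, 0.0944 and 0.0577), 0 subunits were called in either direction, and 6.16% of all rows were called higher and 5.88% lower.

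The right limbs of the recovery animals were themselves high in these genes, which the block takes into account. Their core medians were 0.40, 0.38 and 0.53, the 3 highest of the 9 control limbs. With the animal as a block the median log2 fold change of the subunits in recovery was 0.05 and none of the 44 genes was called. Fibroblast markers also moved with recovery. The 4 listed genes summed to 954 to 1796 CPM in the recovery limbs against 181 to 496 CPM in the control limbs, 3 of 4 were called higher, and none of the 4 was at 0. The 5 macrophage markers summed to 72.1 to 153 CPM against 27.5 to 92.7 CPM, with 3 of 5 called higher. The part of these cells in the result was not tested.

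The treated groups were also compared with each other. From atrophy to recovery, 7 of 34 subunits were called higher (Ndufs1, Ndufs3, Ndufb5, Ndufa10, Ndufv1, Ndufa9 and Ndufab1) and 0 lower, beside 3.34% of all rows called higher and 14.5% called lower. The core subunits had a median difference of 0.75 log2 while all rows had a median of -0.19. From recovery to repeated atrophy, 15 subunits were called lower and 0 higher, beside 6.29% and 21% of all rows, with 6 of the 7 core subunits among them and Ndufv1 the exception (-0.69 log2, adjusted p = 0.0704). The largest differences were those of Ndufs1 (-1.56), Ndufs3 (-1.50, adjusted p = 0.00169) and the membrane-arm subunit Ndufb5 (-1.37, adjusted p = 0.00858). After rescaling, 10 subunits were called higher from atrophy to recovery, beside 5.55% of all rows called higher and 5.05% called lower, and 19 were called lower from recovery to repeated atrophy, beside 11.3% called lower and 10.4% called higher. Of the assembly factors, Ndufaf6 was called higher in CPM from atrophy to recovery, and Ndufaf1 and Ndufaf6 lower from recovery to repeated atrophy. With the animal as a block, where left minus right is compared between animals, 0 subunits and 0 assembly factors were called in either comparison. From atrophy to recovery 3 of 4 fibroblast and 1 of 3 adipocyte markers were called higher. From recovery to repeated atrophy 2 of 4 fibroblast, 1 of 5 macrophage and 1 of 3 adipocyte markers were called lower. The part of these cells was not tested.

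None of the 44 genes was called between the first and the repeated atrophy, beside 0.0214% of all rows called lower and 0.0143% called higher in limma, and 0 of the 44 had an unadjusted p under 0.05. The values were lower after repeated atrophy for 6 of 7 core subunits, the exception being Ndufv1, with a median difference of -0.20 log2. Which genes were called differs between the atrophy groups, but for no gene did the difference itself pass the test. Sham left limbs against the controls gave 0 called genes among the 44 and among all rows (0% in either direction, limma), although 1904 rows had an unadjusted p under 0.05, 0 of the 44 genes among them.

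Against control, few of the 7 assembly factors were called. After repeated atrophy 1 was called lower and 0 higher (6.24% and 28.1% of all rows), after the first atrophy 1 lower and 0 higher (2.33% and 20.3%, both times Ndufaf8) and in recovery 2 higher and 0 lower (4.4% and 3.33%, Ndufaf1 and Ndufaf5). Their median log2 fold change was 0.09 for the first atrophy, 0.51 for recovery and 0.01 for repeated atrophy in CPM. After rescaling it was -0.26, 0.50 and -0.37, the same signs as the core subunits (-0.94, 0.31 and -0.99). The difference between these classes was not tested. In each limb the median over the 34 subunits minus the median over the 7 assembly factors was -0.23 to 0.17 log2 in the controls, -0.48, -0.13 and -0.24 after atrophy, -0.14, -0.31 and -0.38 after repeated atrophy and 0.01, -0.39 and -0.19 after recovery. Of the 9 treated limbs, 5 were below the lowest control limb. The sham limbs were at 0.23, 0.13 and -0.29 on the left and -0.03, 0.05 and -0.43 on the right, and 8 of the 9 treated limbs lay within the range of the sham limbs. Within animals, left minus right of this difference was -0.37, 0.04 and -0.11 log2 after atrophy, -0.12, -0.50 and -0.36 after recovery, -0.30, -0.38 and -0.15 after repeated atrophy and 0.26, 0.08 and 0.15 in the sham animals. All 6 recovery and repeated atrophy animals were below 0 and all 3 sham animals above 0, and this difference from sham was not tested.

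Ndufaf8, which stabilises Ndufaf5, was the 1 assembly factor called lower against control in CPM. It was at 12.5 to 22.1 CPM in the control limbs (median 17.6), at 7.55, 18 and 8.17 CPM in the atrophy limbs, at 14.1, 10.8 and 9.87 CPM in the recovery limbs and at 8.96, 7.34 and 6.68 CPM in the repeated atrophy limbs. All 3 repeated atrophy limbs and 2 of 3 limbs of each other treated group were below the control range, while 1 atrophy limb and 1 recovery limb were inside it. The sham left limbs were at 19.7, 19.9 and 12.4 CPM, the last just below the lowest control limb. The log2 fold change was -1.04 after repeated atrophy (SE 0.22, limma adjusted p = 0.00190) and -0.97 with the block (adjusted p = 0.0320). After the first atrophy it was -0.63 (SE 0.22, adjusted p = 0.0496) and -0.46 with the block (adjusted p = 0.393), and in recovery it was -0.50 (adjusted p = 0.167). Ndufaf8 was also the 1 assembly factor below control in recovery.

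Ndufaf5, an enzyme that hydroxylates Ndufs7, moved with the recovery group instead. It was at 17.3 to 37.2 CPM in the control limbs (median 29.6), at 38.0, 23.6 and 26.8 CPM in the atrophy limbs, at 51.6, 48.5 and 41.9 CPM in the recovery limbs and at 30.4, 36.7 and 27.0 CPM in the repeated atrophy limbs. Only the recovery limbs were all above the controls, by 0.78 log2 (SE 0.19, limma adjusted p = 0.0210). Ndufaf1, part of the complex that helps to assemble the membrane arm, was at 16.3 to 28.1 CPM in the control limbs (median 24), at 31.5, 21.7 and 23.4 CPM in the atrophy limbs, at 38.0, 38.8 and 35.3 CPM in the recovery limbs and at 19.6, 30.2 and 24.2 CPM in the repeated atrophy limbs. The recovery limbs did not overlap the controls either, and the rise was 0.75 log2 (SE 0.18, adjusted p = 0.0164). Both rises were called after rescaling too (0.76 and 0.73 log2), and neither with the block (0.53 for both, adjusted p = 0.243 and 0.276).

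Ndufaf4 and Ndufaf3 work together on the ubiquinone-binding module. Ndufaf4 was at 31.0 to 67.1 CPM in the control limbs (median 42.3), at 58.6, 58.9 and 60.3 CPM in the atrophy limbs, at 72.1, 90.2 and 69.4 CPM in the recovery limbs and at 49.9, 62.7 and 30.8 CPM in the repeated atrophy limbs. Its recovery limbs did not overlap the controls, but the difference of 0.74 log2 did not pass the test (limma adjusted p = 0.0544). Ndufaf3 was at 37.7 to 46.1 CPM in the control limbs (median 43.9), at 45.1, 43.7 and 41.5 CPM in the atrophy limbs, at 50.7, 41.0 and 37.6 CPM in the recovery limbs and at 35.8, 38.7 and 41.7 CPM in the repeated atrophy limbs. Its groups overlapped, and its log2 fold changes of 0.03, 0.01 and -0.13 were not called, although the last was after rescaling (-0.50, adjusted p = 0.0117).

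Ndufaf6, an early assembly factor, was at 8.04 to 14.4 CPM in the control limbs (median 12.7), at 8.67, 11.1 and 10.2 CPM in the atrophy limbs, at 18.4, 21.7 and 12.1 CPM in the recovery limbs and at 11.8, 10.3 and 8.70 CPM in the repeated atrophy limbs. It was called in both comparisons with recovery, at 0.71 log2 against atrophy (limma adjusted p = 0.0398) and -0.68 log2 from recovery to repeated atrophy (adjusted p = 0.0365). Of all rows 3.34% were called higher in the first of these comparisons and 6.29% lower in the second. Neither difference of Ndufaf6 was called with the block. Ndufaf7, a mitochondrial protein methyltransferase, was at 14.4 to 27.0 CPM in the control limbs (median 21.2), at 31.3, 22.7 and 24.3 CPM in the atrophy limbs, at 34.1, 29.4 and 25 CPM in the recovery limbs and at 27.2, 21.5 and 23.1 CPM in the repeated atrophy limbs. It was not called in any comparison, and its largest log2 fold change was 0.51 in recovery (adjusted p = 0.0679).

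**Figure D5:**
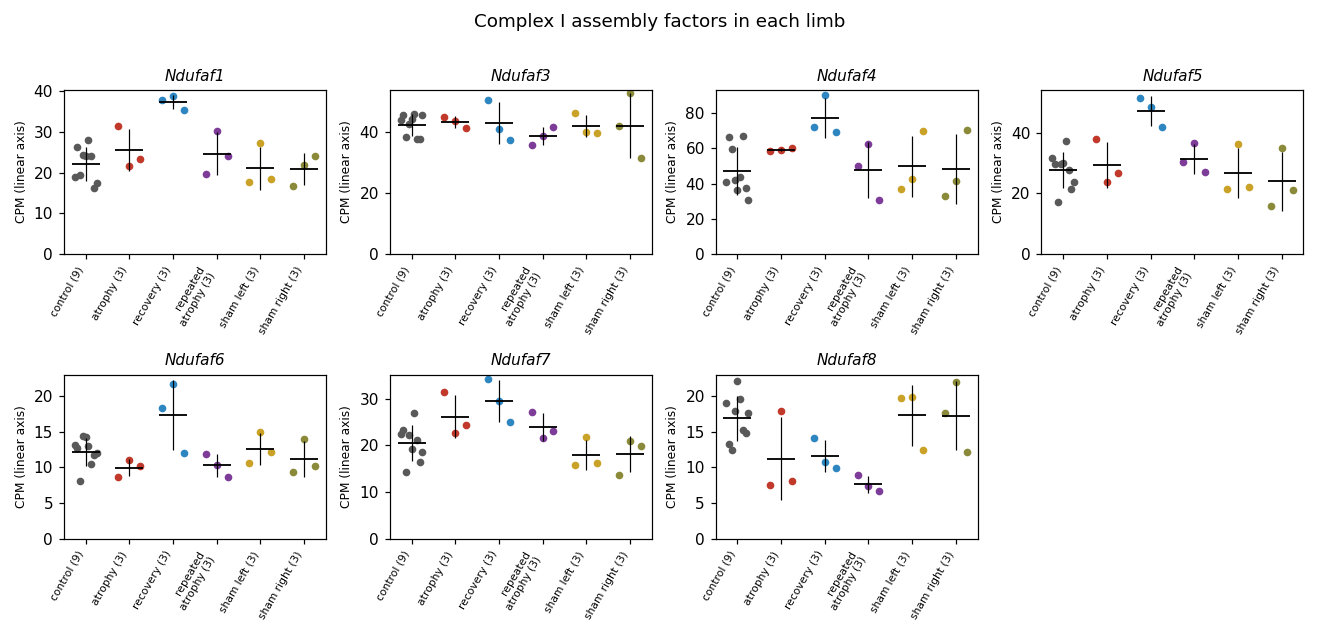
CPM of the 7 assembly factors (y axis, linear from 0) in each limb of the 6 groups (x axis, number of limbs in brackets), with points for limbs, horizontal bars for means and vertical bars for the SD. Ndufaf1, Ndufaf4 and Ndufaf5 have all 3 recovery points above the 9 control points, and Ndufaf8 has all 3 repeated atrophy points below them. Ndufaf4 was not called against control, and the share of all rows separated in this way is not given here.

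Of the listed complex I assembly factors with other names, 9 had a row. After repeated atrophy 3 were called higher (Nubpl by 0.73 log2, Acad9 by 0.51 and Timmdc1 by 0.42) and 1 lower (Ecsit, -0.47), beside 28.1% and 6.24% of all rows, in recovery none was called, and after the first atrophy Timmdc1 alone was called higher (0.53, limma adjusted p = 0.0192). Acad9, Ecsit, Tmem126b and Ndufaf1 form 1 assembly complex, and after repeated atrophy their log2 fold changes were 0.51 (adjusted p = 0.00701), -0.47 (adjusted p = 0.0200), 0.29 (adjusted p = 0.429) and 0.15 (adjusted p = 0.559) in CPM, where all rows had a median of 0.20. After rescaling they were 0.14 (adjusted p = 0.518), -0.85 (adjusted p = 0.00653), -0.08 (adjusted p = 0.856) and -0.22 (adjusted p = 0.416), against -0.01 over all rows. None of the 9 was then called higher after repeated atrophy, and 2 were called lower (Ecsit and Dmac2, the latter at -0.62, limma adjusted p = 0.00143). After the first atrophy Timmdc1 was at 0.18 after rescaling (adjusted p = 0.390), and Ecsit was then called lower (-0.77, adjusted p = 0.0298). From atrophy to recovery 1 of the 9 was called higher (Tmem70, 1.00 log2) and 1 lower (Timmdc1, -0.65), beside 3.34% and 14.5% of all rows. From recovery to repeated atrophy 2 were called lower (Tmem70, -0.99, and Dmac2, -0.52) and 1 higher (Timmdc1, 0.53), beside 6.29% and 21% of all rows. After rescaling Tmem70 (1.34) and Dmac2 (0.60) were called higher in the first of these comparisons and Tmem70 (-1.35), Dmac2 (-0.88) and Ecsit (-0.79) lower in the second, with none called in the other direction.

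The genes kept apart from the classes behaved differently from each other. Ndufa4 was at 373 to 784 CPM in the control limbs (median 594), at 693, 620 and 524 CPM in the atrophy limbs, at 906, 779 and 635 CPM in the recovery limbs and at 715, 658 and 492 CPM in the repeated atrophy limbs, and was not called in any comparison. Ndufa4l2, known as a hypoxia-induced gene, was at 2.10 to 5.11 CPM in the control limbs (median 3.92), at 1.70, 1.38 and 2.31 CPM in the atrophy limbs, at 1.11, 1.39 and 1.75 CPM in the recovery limbs and at 1.93, 2.62 and 1.79 CPM in the repeated atrophy limbs. It was the 1 gene of the 44 called lower in all 3 treated groups (-0.73, -0.93 and -0.57 log2, limma adjusted p = 0.0155, 0.00952 and 0.0299), and the recovery limbs did not overlap the controls. With the block it was called in none of them (-0.49, -1.08 and -0.66 log2, adjusted p = 0.307, 0.113 and 0.0734). At these levels the log2(CPM + 1) scale understates the fold. Ndufa10l1 and Ndufa10 differed by 0.72 and 0.90 log2 from atrophy to recovery, and the pair cannot be told apart where reads map to both.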

How the data were processed

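Rat tibialis anterior RNA was sequenced as poly(A)-selected, directional, paired-end libraries from 24 limbs. Per the study's methods and the submitters' processing notes, the authors filtered contaminants with Bowtie2 2.2.5, aligned with STAR to rn7 and quantified and normalised in Partek Flow. The authors deposited CPM per gene row, which are not counts, so limma 3.58.1 (R 4.3.3) was run on log2(CPM + 1) with an intensity trend, two-sided, with Benjamini-Hochberg adjustment over all rows. The study's thresholds (1.2-fold, adjusted p of 0.05) were kept.

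Of 14271 rows, 28 duplicates were dropped, and rows above 0 in at least 3 limbs were tested (14031, or 13822 for sham). 3 further columns of values matched no sample here and were not used. The treated groups and the 9 control limbs shared 1 fit, and sham left limbs were fitted with the controls. Samples were grouped by their labels. Comparisons with control share the same control limbs. Low values were multiples of 1 step per limb (89.2% to 91.1% of them within 0.1 of a step), which gave an inferred depth of 18861200 to 30893800 reads per limb, and the others were not whole.

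The animal labels pair left and right limbs. Deviations of paired limbs from their group means correlated at a mean r of 0.118 in the TTX animals (below 0 in 3 of 9) and 0.745 in the sham animals. The members, classes, lists and motifs were chosen with earlier results of these data known. Genes were named by rule: all assembly factors, the core subunits (1 is not reported here by itself), Ndufa4 and Ndufa4l2, and the 3 largest called rises and falls of accessory subunits in each comparison with control. The rescaling factor was the mean log ratio to a reference limb after trimming (30% on the ratio and 5% on the level). The limma step was checked on data with known changes. Replicates were separate animals.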

Additional observations from a re-analysis of the deposited data

Results flagged for a closer look

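In 13 cases, on 8 subunits, left minus right had 1 sign in every animal of one arm and the opposite sign in every animal of another (3 animals each). This was 4.92% of 264 pairings of a gene with a pair of arms, beside 2.64% over the 14031 rows tested. For repeated atrophy against sham it was 7 of 44 genes (15.9%, beside 3.16% of all rows), for recovery against sham 4 of 44 (9.09%, beside 2.50%), for atrophy against recovery and for recovery against repeated atrophy 1 of 44 each (2.27%, beside 3.20% and 3.98%), and for the other pairs 0. The values are differences of the mean left minus right on the log2(CPM + 1) scale, the second arm minus the first. Repeated atrophy against sham gave 0.72 for Ndufa8, 0.69 for Ndufb7, 0.58 for Ndufs8, 0.56 for Ndufa13, 0.54 for Ndufab1, 0.53 for Ndufb8 and 0.37 for Ndufa11, each with the left limb lower in the repeated atrophy animals and higher in the sham animals. Recovery against sham gave 0.68 for Ndufa13, 0.66 for Ndufa11, 0.64 for Ndufb7 and 0.42 for Ndufa7, in the same direction. The median over the 34 subunits also had opposite signs in repeated atrophy and sham animals (0.34), and the subunit median minus the assembly factor median did in recovery and sham animals (0.49) and in repeated atrophy and sham animals (0.44). After rescaling, left minus right of the subunit median was 0.40, -0.04 and 0.19 in the sham animals, no longer of 1 sign. The subunit minus assembly factor median kept its signs in these arms. The signs of single genes were taken in CPM and not after rescaling. In CPM, sham animal 2 had scaling factors of 0.958 on the left and 0.856 on the right. The differences from sham were not tested. For Ndufa7 the left limb was higher in the atrophy and repeated atrophy animals and lower in the recovery animals, by -0.52 from atrophy to recovery and 0.51 from recovery to repeated atrophy, and neither passed the test in the blocked limma fit (adjusted p = 0.592 and 0.191). In 50 checks of the 9 control limbs (44 genes and 6 limb scores) no limb stood apart by Dixon's criterion (0 of 50).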

How the results depend on the processing

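Of 49 gene calls none reversed under any alternative, and calls were lost with the animal as a block (44, and 39 when also rescaled) and with 12 right limbs as control (15). Of the calls that each animal enters, 28 were lost and 5 kept without recovery animal 1, and likewise without recovery animal 2, 20 lost and 10 kept without repeated atrophy animal 3, 18 and 12 without animal 2, 13 and 17 without animal 1, and 12 and 1 without atrophy animal 1. Values below are counts of called genes or median log2 fold changes, and the cause of a change was not tested unless stated. Shares of all rows called are given only where stated above, so a change in a count below is not set against that over all rows. The median of ratios rescaling, the block with rescaling and the rescaling without atrophy animal 2 were chosen after seeing the data.

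Trimmed-mean rescaling, quantile normalization and median of ratios rescaling gave, after atrophy, 5, 5 and 5 subunits called, a subunit median of -0.56, -0.57 and -0.57 and an assembly factor median of -0.26, -0.28 and -0.27. After repeated atrophy they gave 2, 2 and 2 assembly factors called, a subunit median of -0.62, -0.63 and -0.63 and an assembly factor median of -0.37, -0.39 and -0.37, and quantile normalization gave 17 subunits called. In recovery the trimmed mean and median of ratios gave 0 subunits called. From atrophy to recovery, 3, 3 and 3 assembly factors were called, and 16 subunits with quantile normalization and 11 with median of ratios. From recovery to repeated atrophy, 5, 5 and 5 assembly factors were called, and 24 subunits with quantile normalization.

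With the animal as a block, 0 subunits and 0 assembly factors were called after atrophy, in recovery, from atrophy to recovery and from recovery to repeated atrophy, rescaled or not, and 5 subunits were called after repeated atrophy. The subunit median with the block was -0.0052 after atrophy and 0.054 in recovery, and the assembly factor median after repeated atrophy was 0.10. With block and rescaling the subunit median was -0.069 in recovery and -0.56 after repeated atrophy, and the assembly factor median -0.15, 0.24 and -0.27 after atrophy, recovery and repeated atrophy. Subunit median minus assembly factor median in recovery was -0.31 with the block, rescaled or not, against -0.09.

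With 12 right limbs as control, 1 subunit was called after atrophy, 4 after repeated atrophy and 4 from atrophy to recovery. A pseudocount of 10 gave 0 assembly factors after atrophy and 2 from atrophy to recovery, as did a mean of at least 1 CPM, no trend and rows summed per symbol (2 each) in the last. Rescaled and without atrophy animal 2, 13 subunits were called after atrophy (median -0.74, assembly factors -0.23, difference -0.51), and 13 subunits and 4 assembly factors from atrophy to recovery.

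Leaving out 1 animal at a time, called subunits ranged from 0 to 3 after atrophy, 0 to 4 in recovery, 2 to 4 after repeated atrophy, 0 to 12 from atrophy to recovery and 5 to 16 from recovery to repeated atrophy. Called assembly factors ranged from 0 to 1 after atrophy, and from 0 to 2 in recovery, from atrophy to recovery and from recovery to repeated atrophy. The assembly factor median after repeated atrophy ranged from -0.15 to 0.12, and the subunit minus assembly factor median from -0.49 to -0.22 after atrophy and from -0.33 to -0.12 after repeated atrophy. Fewer limbs enter each of these fits.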
